A study of Mus musculus with 41 samples.

Results

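The mRNA of 4 adhesion receptors, *Itgb1*, *Cd44*, *Vcam1* and *Icam1*, was described in tissue of 41 mice. They are 4 of the 54 target genes of the qPCR panel and were taken by name from the table of threshold cycles (Ct), in which the last is headed ICAM and was read as *Icam1*. The mice were female and of the NSG strain, which lacks T, B and NK cells but keeps monocytes, macrophages and neutrophils, and the tissue was labelled skin. By their labels, 6 mice carried a P nanomesh and 7 a P nanomesh with eMSC (P+eMSC) for 1 week, 8 carried P and 7 P+eMSC for 6 weeks, and the sham controls numbered 7 at 1 week and 6 at 6 weeks. P is a degradable electrospun nanofibre mesh placed under the skin of the abdomen, and eMSC are human endometrial mesenchymal stem/stromal cells that were laid on it. No mouse received eMSC without a mesh. The tissue lay close to the mesh, and some animals had also served in an earlier study.

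Adhesion receptors fall into a group that holds cells to the matrix and a group that holds leukocytes to the vessel wall. *Itgb1* encodes the integrin β1 chain, which pairs with many α chains to bind collagens, laminins and fibronectin, and *Cd44* encodes the receptor for hyaluronan, carried by leukocytes as well as by stromal cells. *Vcam1* and *Icam1* encode endothelial immunoglobulin-like molecules that catch rolling leukocytes through the integrins α4β1 and the β2 integrins, and inflammatory cytokines such as IL-1 and TNF induce both through NF-κB. Around an implant both groups meet, since leukocytes have to leave the vessels before macrophages and fibroblasts can settle on the material.

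The 250 bases before the transcription start are shown because the results turn on which receptors moved together, and *Icam1* is the textbook case of a promoter read by NF-κB. RefSeq gave a window for 3 of the 4 genes, *Itgb1*, *Cd44* and *Icam1*. Sequences are on the gene's strand of GRCm38.p6, at chr8:128685404-128685653 (+) for *Itgb1*, chr2:102901666-102901915 (−) for *Cd44* and chr9:21015690-21015939 (+) for *Icam1*. Capitals mark matches on either strand, which did not overlap each other. The letters of a κB element, GGAAATTCC, were searched first. A TATA element was searched as TATAAA. The letters of a GC box were GGGCGG.
Itgb1: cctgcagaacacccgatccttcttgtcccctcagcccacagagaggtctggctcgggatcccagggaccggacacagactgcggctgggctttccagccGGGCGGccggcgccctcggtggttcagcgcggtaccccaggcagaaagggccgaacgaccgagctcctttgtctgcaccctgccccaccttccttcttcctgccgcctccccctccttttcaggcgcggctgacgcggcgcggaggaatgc
Cd44: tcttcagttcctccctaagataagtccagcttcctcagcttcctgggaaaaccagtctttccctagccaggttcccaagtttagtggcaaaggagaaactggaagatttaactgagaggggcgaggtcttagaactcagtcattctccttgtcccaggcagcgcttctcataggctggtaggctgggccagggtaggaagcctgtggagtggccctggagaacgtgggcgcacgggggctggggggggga
Icam1: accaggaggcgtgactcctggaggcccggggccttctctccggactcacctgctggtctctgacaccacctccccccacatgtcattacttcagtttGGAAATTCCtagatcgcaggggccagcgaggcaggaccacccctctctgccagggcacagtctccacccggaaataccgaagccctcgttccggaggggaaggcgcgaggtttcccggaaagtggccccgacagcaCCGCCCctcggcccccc
The *Icam1* window held the κB letters at positions -153 to -145 from the start and the GC box letters on the other strand at -17 to -12. The *Itgb1* window held the GC box letters at -151 to -146, and the *Cd44* window held none of the 3 motifs. Among 32851 RefSeq promoter windows of the same length, the κB letters stood in 0.286%, those of the GC box in 32.7% and those of the TATA element in 12.4%. A match is a run of letters, and it was not tested for binding in these mice.

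The level of a receptor was the Ct of 18S ribosomal RNA minus the Ct of the gene, a log2 scale on which a higher value is more mRNA and 1 unit is a doubling. Levels of different genes were not ranked against each other, because their assays may amplify with different efficiency. The tissue is a mixture, so fewer cells of a type and less mRNA per cell cannot be told apart. Of the 164 receptor values 2 were undetected, *Vcam1* and *Icam1* in mouse 52 (P, 6 weeks). That mouse stood apart, with 31 of the 54 target genes undetected and an 18S Ct of 7.79 where the group medians lay between 6.60 and 6.94. Mouse 78 of the P+eMSC group at 1 week had 6 undetected target genes. The label of mouse 2356 gives P at 6 weeks, whereas 49 of its 54 deposited fold changes came out within 0.01 (log2) with the sham mice of 1 week as the calibrator and 1 with those of 6 weeks. It was kept at 6 weeks. For many of the values that moved when one of these mice was left out, the value without it is given beside it. This was not done for every value, and not within the animal number series.

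**Figure D1:**
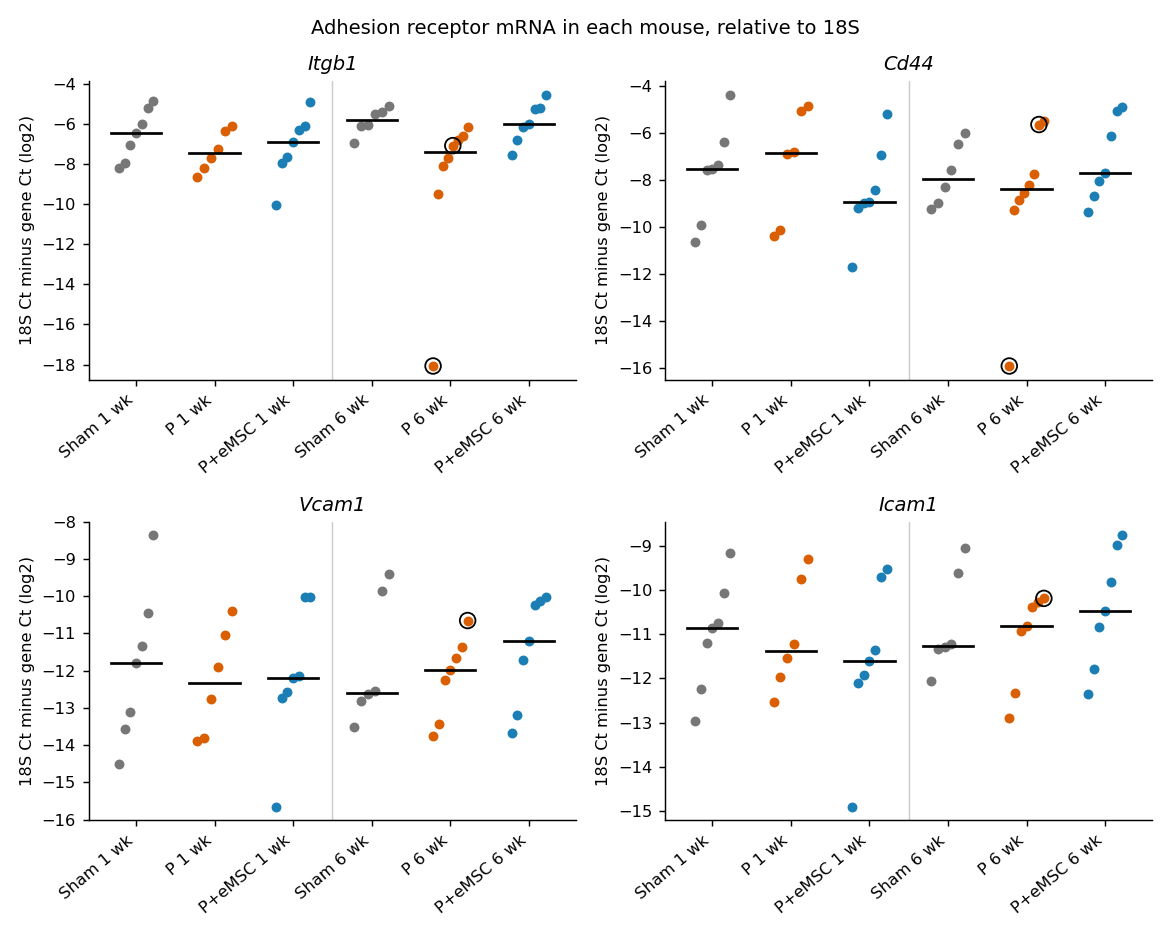
Level of each receptor (18S Ct minus gene Ct, log2, vertical axis) in every mouse of the 6 groups, with the group median as a bar and mice 52 and 2356 of the P group at 6 weeks circled. The *Itgb1* medians of P at 1 and 6 weeks (-7.47 and -7.41) are the lowest of the 6, and the single points near the bottom of the *Itgb1* and *Cd44* panels are mouse 52.

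*Itgb1*, the matrix receptor chain that most adherent cells carry, had the steadiest level in the sham controls at 6 weeks, from -6.94 through a median of -5.79 to -5.13. In P at 6 weeks the lowest level was -18.07 (mouse 52), the median -7.41 and the highest -6.19. The 8 P mice all lay below the sham median, and the groups overlapped only through mouse 123 among the controls and 3 of the P mice. The level in P was lower by a Hodges-Lehmann shift of -1.64 (exact 95% interval -3.99 to -0.67), which is 3.11-fold less mRNA relative to 18S. The two-sided Mann-Whitney test, computed exactly, gave p = 0.00466, and after Benjamini-Hochberg adjustment over the 54 target genes it was 0.0551, so *Itgb1* was not called. In this comparison 3.7% of the target genes were called, 2 of 54, and 0 of the 4 receptors. The called genes were *Timp2* and *Timp3*, inhibitors of matrix metalloproteinases, named here after their values were seen, both lower in P. The count was 10 without mouse 437, 8 without the sham mouse 123 and 0 when any other mouse of either group was left out. At the study's own threshold, an unadjusted p just above 0.05, 25.9% of the target genes lay lower in P and 0 higher, and *Itgb1* was the only receptor among them. The shift of *Itgb1* was -1.43 without mouse 52 (exact p = 0.00816), -1.67 without mouse 2356 and -1.43 without both. Leaving out mouse 437 or the sham mouse 123 brought it past the adjusted threshold, with adjusted p of 0.0315 and 0.028.

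*Cd44*, *Vcam1* and *Icam1* did not share the low level of *Itgb1* in P at 6 weeks. *Cd44*, the hyaluronan receptor, lay from -15.93 (mouse 52) through -8.37 to -5.49 in P and from -9.24 through -7.93 to -5.99 in the controls. *Vcam1* lay from -13.76 through -11.98 to -10.65 in 7 P mice and from -13.51 through -12.59 to -9.40 in the controls. *Icam1* lay from -12.89 through -10.82 to -10.19 in 7 P mice and from -12.06 through -11.26 to -9.05 in the controls. For these 3 receptors the ranges of both groups overlapped, and their shifts came to -0.19, -0.08 and -0.42 (exact p-values 0.852, 1 and 0.945). Their 95% intervals reached from -2.80 to 1.51, from -2.39 to 1.53 and from -1.66 to 1.10, wide enough to hold the *Itgb1* shift of -1.64 itself. Without mouse 2356 the 3 shifts were -0.61, -0.42 and -0.72, and without mouse 52 that of *Cd44* was 0.10.

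The panel as a whole lay lower in P at 6 weeks, with a median shift of -0.83 over the 54 genes and 43 of them below 0 (-0.63 and 40 without mouse 52). A second reference was therefore used, the median Ct of the 21 target genes detected in every mouse with the receptors left out (the panel median). On this scale *Itgb1* in P lay at -0.67 relative to the controls (95% interval -1.46 to 0.0027, exact p = 0.0593). *Cd44*, *Vcam1* and *Icam1* lay on the other side of 0, at 1.04, 0.91 and 0.73, with exact p-values of 0.142, 0.181 and 0.0734. The median shift over all 54 genes on this scale was 0.14. Relative to the rest of the panel, P mice at 6 weeks thus had lower *Itgb1* values and higher values of the other 3 receptors, and none of the 4 passed the test. Mouse 52 had the lowest *Itgb1* of the group on this scale too (-1.12, the others from 0.80 to 1.98), while its *Cd44* of 1.02 lay inside the range of the others (-0.64 to 3.05).

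With eMSC on the mesh the *Itgb1* level at 6 weeks was that of the controls within the spread. In P+eMSC it ran from -7.57 through -6.02 to -4.55, and 5 of the 7 mice lay inside the sham range. The shift from sham was 0.01 (95% interval -1.38 to 0.92, exact p = 1). Between P+eMSC and P, 6 of 7 P+eMSC mice lay above the P median, and the shift of *Itgb1* was 1.68 (95% interval 0.27 to 3.54, exact p = 0.014, adjusted 0.158). On the panel median scale it was 0.45 (exact p = 0.152). *Itgb1* was again the only receptor within the study's threshold, where 18.5% of the target genes lay, each higher in P+eMSC. This differs from the paper, which likewise used a Mann-Whitney test, there on fold changes. It reported *Itgb1*, *Vcam1*, *Icam1* and *Cd44* as significantly higher in P+eMSC than in P at 6 weeks. The inputs were not alike. Here 8 P mice gave values of *Itgb1* and *Cd44*, and 7 gave values of *Vcam1* and *Icam1*. The legend of the paper's figure states no group as large as the first of these. The deposited fold changes of mouse 2356 matched the sham mice of 1 week as calibrator, whereas its levels here used no calibrator. The cause of the difference was not tested. No target gene was called in either comparison (0% of 54), while 10 had an unadjusted p below 0.05 for P+eMSC against P and 0 for P+eMSC against sham, and limma called 0 in both. Both comparisons share their P+eMSC mice with each other and their other mice with that of P against sham, so they are not separate evidence.

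*Vcam1*, *Icam1* and *Cd44* overlapped widely between P+eMSC and both other groups at 6 weeks. *Vcam1* ran from -13.68 through -11.20 to -10.02 and *Icam1* from -12.35 through -10.48 to -8.77, both with the highest median of the 6 groups. *Cd44* ran from -9.34 through -7.70 to -4.90. Against sham the shifts were 0.08, 0.43 and 0.58 for *Vcam1*, *Icam1* and *Cd44*, with intervals from -1.80 to 2.57, from -1.22 to 2.30 and from -1.71 to 3.12. On the 18S scale P+eMSC lay above P by 0.63 (*Vcam1*), 0.54 (*Icam1*) and 0.66 (*Cd44*), with exact p-values of 0.259, 0.456 and 0.336. Leaving out mouse 2356 made these 1.17, 0.79 and 1.16, and leaving out mouse 52 made that of *Cd44* 0.51. On the panel median scale the 3 lay lower in P+eMSC than in P, at -0.43, -0.60 and -0.44, and the exact p of *Icam1* was 0.0728. For these receptors the choice of reference thus set the direction between P+eMSC and P, as it did between P and sham.

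At 1 week, *Itgb1* ran from -8.68 through -7.47 to -6.10 in P, from -10.06 (mouse 78) through -6.92 to -4.91 in P+eMSC and from -8.22 through -6.46 to -4.84 in the controls. The 3 ranges overlapped, and the median of P was the lowest, as it was at 6 weeks. The shift of P from sham was -0.82 (95% interval -2.47 to 0.74, exact p = 0.295), and that of P+eMSC from sham was -0.46 (-2.45 to 1.31), or -0.02 without mouse 78. No target gene was called in these 2 comparisons or between P+eMSC and P (0% of 54 in each), with 2, 0 and 0 genes at an unadjusted p below 0.05, and limma called 0 in each. At the study's threshold 5.56% of the target genes lay lower in P than in sham, none of them a receptor. These 3 genes, named after their values were seen, were the growth factor genes *Vegfa*, *Pdgfa* and *Tgfb3*.

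*Cd44* was the receptor with the widest spread at 1 week. The 6 P mice fell into 4 with levels from -6.90 to -4.84 and a pair, mice 133 and 2355, at -10.14 and -10.40. In P+eMSC the levels ran from -11.71 (mouse 78) through -8.91 to -5.16, and in the controls from -10.64 through -7.51 to -4.35. P had the highest median of the 6 groups (-6.84) and P+eMSC the lowest (-8.91), and 6 of the 7 P+eMSC mice lay below the P median. The difference was within the spread, with an interval from -4.14 to 1.72 (exact p = 0.366), and the shift of -1.60 was -0.92 without mouse 78. The paper, in contrast, reported *Cd44* as significantly lower in P+eMSC than in P at 1 week. On the panel median scale the pair did not stand so far below (the lower at -0.41, the group median 1.74), and *Cd44* in P+eMSC lay at -1.39 relative to P (exact p = 0.101). The median shift over all 54 genes was -0.45 there.

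*Vcam1* at 1 week ran from -13.87 through -12.34 to -10.40 in P, from -15.65 (mouse 78) through -12.20 to -10.01 in P+eMSC and from -14.50 through -11.81 to -8.36 in the controls. *Icam1* ran from -12.54 through -11.38 to -9.30 in P, from -14.90 (mouse 78) through -11.60 to -9.53 in P+eMSC and from -12.96 through -10.87 to -9.17 in the controls. The groups overlapped nearly whole for both genes, with shifts from sham of -0.26 and -0.22 in P and of -0.33 and -0.55 in P+eMSC (0.47 and -0.25 without mouse 78). On the panel median scale *Icam1* in P lay 0.60 above the controls (95% interval 0.03 to 0.97, exact p = 0.035, adjusted p = 0.437), the single receptor value outside *Itgb1* with an exact p below 0.05 on either scale. With 18S its shift was -0.22, so this higher value is one relative to the panel median and not to 18S. The median shift over all 54 genes on the panel median scale was itself 0.45 in this comparison, and 4 of them had an exact p below 0.05. The *Icam1* shift thus lay close to that of the panel.

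The order of the groups by median differed from receptor to receptor. For *Itgb1* it was sham at 6 weeks, P+eMSC at 6 weeks, sham at 1 week, P+eMSC at 1 week, P at 6 weeks and P at 1 week, from high to low. For *Cd44* it was P at 1 week, sham at 1 week, P+eMSC at 6 weeks, sham at 6 weeks, P at 6 weeks and P+eMSC at 1 week. For *Vcam1* and *Icam1* P+eMSC at 6 weeks came first, and sham at 6 weeks and P+eMSC at 1 week came last, respectively. In each of the 4 orders, all 5 gaps between neighbouring medians were smaller than the SD of either neighbour, the largest being 0.49 for *Itgb1*, 0.67 for *Cd44*, 0.60 for *Vcam1* and 0.39 for *Icam1*.

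**Figure D2:**
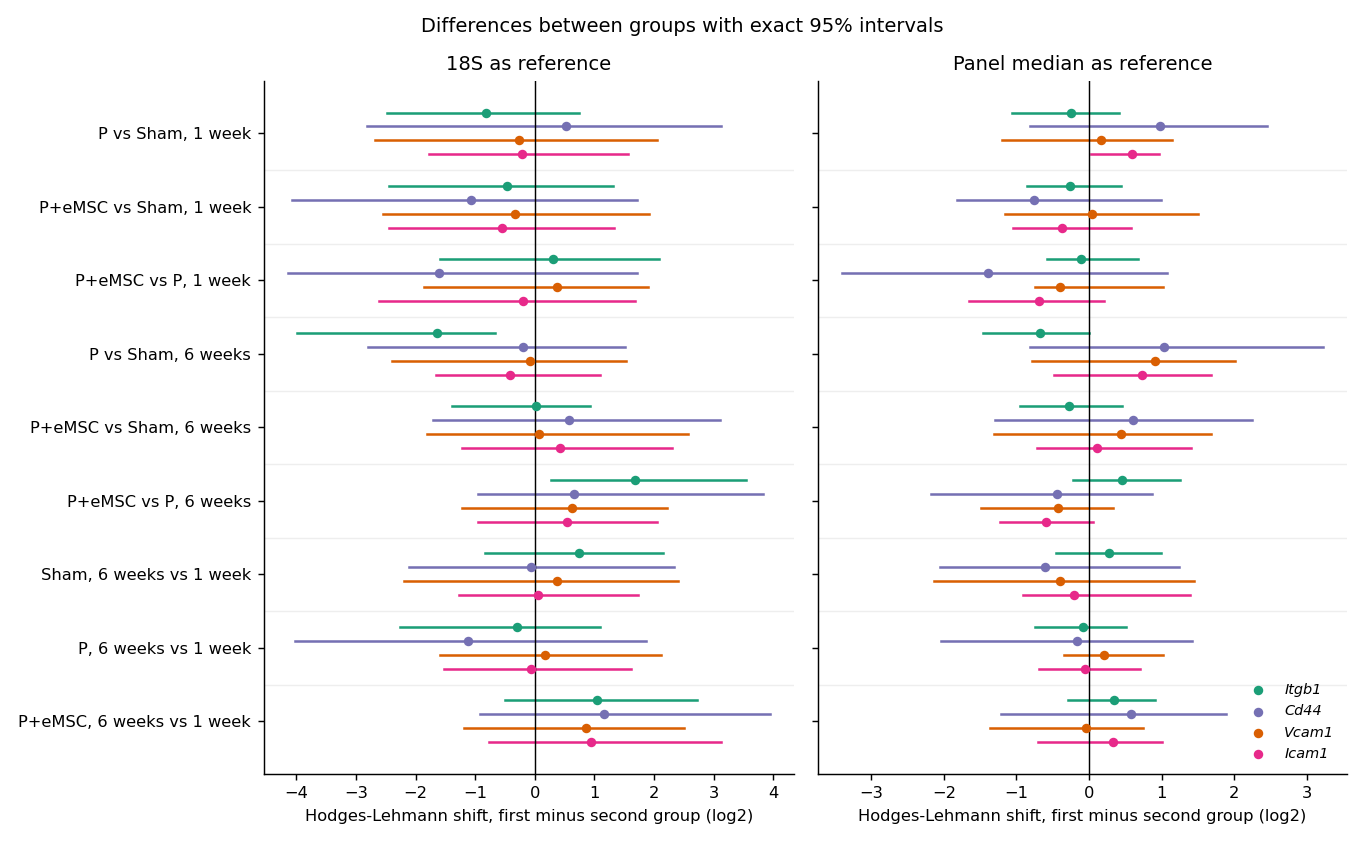
Hodges-Lehmann shift (point) with its exact 95% interval (line) of each receptor in the 9 comparisons, first group minus second, on the log2 scale, with 18S (left) and the panel median (right) as the reference. On the left, only the *Itgb1* intervals for P vs Sham and P+eMSC vs P at 6 weeks leave out 0, at -1.64 and 1.68, and on the right only that of *Icam1* for P vs Sham at 1 week does, at 0.60.

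Between 1 and 6 weeks, each receptor was compared within a treatment. In the controls the shifts (6 weeks minus 1 week) were 0.74 for *Itgb1*, -0.07 for *Cd44*, 0.37 for *Vcam1* and 0.05 for *Icam1*. In P they were -0.30, -1.13, 0.18 and -0.07, and in P+eMSC 1.05, 1.17, 0.86 and 0.95 in the same order. The 4 receptors lay higher at 6 weeks in P+eMSC, where the median shift over all 54 genes was 0.88 and 51 of them lay above 0. Without mouse 78 the median over all genes was 0.46, with 41 above 0. The exact p-values ran from 0.128 to 0.71 in P+eMSC, from 0.445 to 1 in the controls and from 0.491 to 1 in P. No target gene was called in any of the 3 (0% of 54 each), with 2 genes at an unadjusted p below 0.05 in the controls, 0 in P and 0 in P+eMSC, and limma called 0 in each. Without mouse 78, the *Vcam1* shift in P+eMSC was -0.0013 and that of *Cd44* 0.76. In P, the *Itgb1* shift was 0.04 and the *Cd44* shift -0.72 without mouse 52. Without mouse 2356, the shifts in P were -1.68 for *Cd44*, -0.02 for *Vcam1* and -0.36 for *Icam1*. On the panel median scale the P+eMSC shifts were 0.35, 0.58, -0.04 and 0.32.

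Whether a difference between treatments itself changed from 1 to 6 weeks was tested in limma over all 41 mice. For P+eMSC against P the change was 2.57 ± 1.53 (standard error) for *Itgb1*, 2.71 ± 1.68 for *Cd44*, 0.59 ± 1.31 for *Vcam1* and 1.22 ± 1.13 for *Icam1*. The limma adjusted p was 0.485 for *Itgb1* and *Cd44*, 0.68 for *Vcam1* and 0.506 for *Icam1*. Mouse 52 has values of *Itgb1* and *Cd44* alone, and without it their changes were 1.24 ± 0.97 and 1.68 ± 1.43, so that *Itgb1* lay beside *Icam1*. Without mouse 78 *Vcam1* was at 0.016 and *Icam1* at 0.67. All 54 genes had a value above 0 in this contrast, with a median of 1.70 (54 and 1.22 without mouse 52, 53 and 1.17 without mouse 78). For P against sham the change was -2.06 ± 1.56 for *Itgb1*, -1.27 ± 1.71 for *Cd44*, 0.06 ± 1.34 for *Vcam1* and -0.34 ± 1.15 for *Icam1*. Without mouse 52 it was -0.73 ± 0.99 for *Itgb1* and -0.24 ± 1.46 for *Cd44*. For P+eMSC against sham it ran from 0.51 (*Itgb1*) to 1.44 (*Cd44*), and without mouse 78 from 0.02 to 0.90 for the same genes. None of the 54 genes was called in any of the 3 contrasts (0% each), with 0 at an unadjusted p below 0.05, and no rank test was run for them.

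The matrix receptors were set against the leukocyte-recruiting ones within each mouse, as the mean of *Itgb1* and *Cd44* minus the mean of *Vcam1* and *Icam1*. The reference cancels in this difference, and its size has no meaning of its own, because assays may differ in efficiency, so only its change between groups is read. Its median was 4.25 in the controls, 4.42 in P and 4.03 in P+eMSC at 1 week, and 4.53, 4.26 and 4.71 at 6 weeks. The ranges of all groups overlapped. In P at 6 weeks 7 of 7 mice lay below the sham median of that week, against 2 of 6 at 1 week. In P+eMSC the counts were 5 of 7 at 1 week and 3 of 7 at 6 weeks. The SD within groups was 0.64 over 40 mice, against 1.18 to 1.90 for single receptors over the same mice with 18S. The 0.64 is for means of 2 receptors, so these values are not like for like. Differences of 1 receptor from each side had SDs from 0.81 (*Itgb1* minus *Icam1*) to 1.13 (*Cd44* minus *Icam1*). These lay below the SDs of the single receptors, so part of what varied between mice of a group was common to both sides. The spread was narrowest in P+eMSC at 1 week (3.88 to 4.39, SD 0.20, n = 7) and widest in the controls at 6 weeks (3.16 to 6.55, SD 1.27, n = 6).

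Set against each other, the 2 matrix receptors gave group medians that lay further apart. *Itgb1* minus *Cd44* had a median of -0.63 in P at 1 week and -0.19 in P at 6 weeks, against 0.89 and 1.90 in the controls and 1.66 and 1.11 in P+eMSC. In P, 4 of 6 mice at 1 week and 6 of 8 at 6 weeks lay below the sham median of their week, and in P+eMSC 2 of 7 and 4 of 7. The groups overlapped (from -2.24 to 2.34 in P and from 0.33 to 3.55 in the controls at 6 weeks), and no test was run on this difference. *Itgb1* minus *Icam1* was likewise lower in P, with medians of 3.80 and 3.68 at 1 and 6 weeks, against 4.32 and 4.82 in the controls and 4.69 and 4.44 in P+eMSC. It lay below the sham median of the week in 6 of 6 and 7 of 7 P mice, and in 2 of 7 and 5 of 7 P+eMSC mice. For *Itgb1* minus *Vcam1* the counts were 4 of 6 and 7 of 7 in P, and 5 of 7 and 6 of 7 in P+eMSC. *Vcam1* minus *Icam1* had medians from -1.40 (P at 1 week) to -0.53 (P+eMSC at 1 week), with an SD within groups of 0.67 against 1.5 for *Itgb1* minus *Cd44*.

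**Figure D3:**
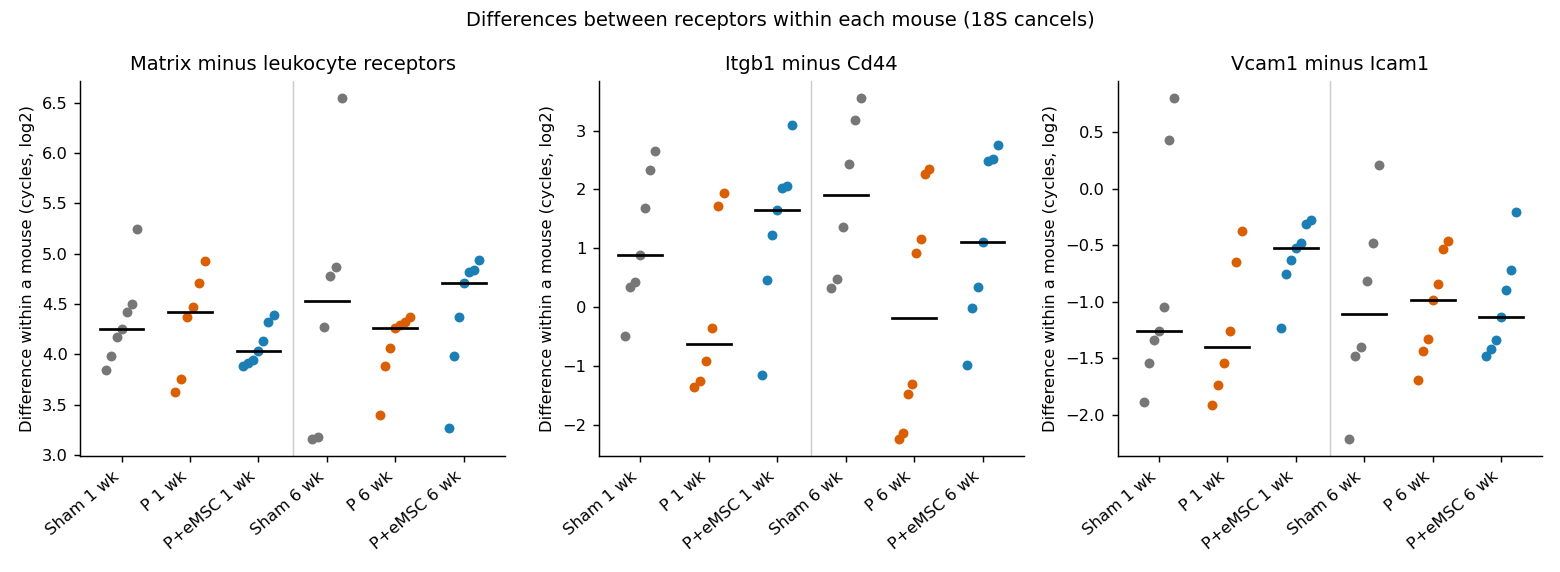
Differences between receptors within each mouse (cycles, log2) in the 6 groups, with the median as a bar. The mean of matrix minus the mean of leukocyte-recruiting receptors has medians from 4.03 to 4.71 in the left panel, *Itgb1* minus *Cd44* has its lowest medians in both P groups (-0.63 and -0.19) in the middle panel, and *Vcam1* minus *Icam1* has medians from -1.40 to -0.53 in the right panel.

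Across the mice, the 2 leukocyte-recruiting receptors went together, while the 2 matrix receptors did not on the panel median scale. *Vcam1* and *Icam1* were the closest pair, with Spearman's rho of 0.91 and Pearson's r of 0.91 over 40 mice on the 18S scale, and rho of 0.63 and r of 0.65 on the panel median scale. *Cd44* went with both, with rho on the panel median scale of 0.60 for *Icam1* and 0.53 for *Vcam1*. *Itgb1* went with none of the 3 on that scale, with rho of -0.22 for *Cd44* (41 mice), -0.16 for *Vcam1* and -0.0013 for *Icam1*. On the 18S scale all 6 pairs had rho from 0.56 to 0.91, but there every value of a mouse shares its 18S Ct and its overall signal. Within groups (deviations from the group medians) rho on the panel median scale was 0.52 for *Vcam1* and *Icam1*, 0.45 for *Cd44* and *Icam1* and -0.19 for *Itgb1* and *Cd44*. Leaving out the 2 mice farthest in the first gene, r was 0.65, 0.51 and -0.24 for these pairs. The mice of a group share treatment and week, and these values are descriptions with no test.

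**Figure D4:**
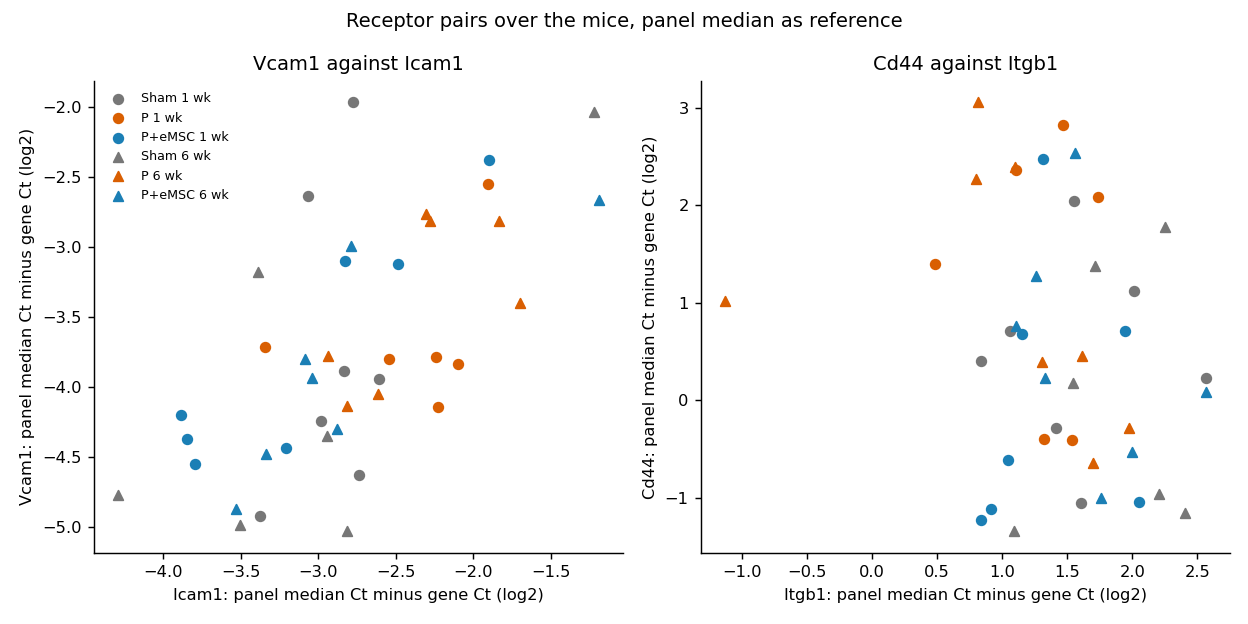
*Vcam1* against *Icam1* (left, 40 mice) and *Cd44* against *Itgb1* (right, 41 mice), each as panel median Ct minus gene Ct on the log2 scale, with circles for 1 week, triangles for 6 weeks and colour for the treatment. High *Vcam1* goes with high *Icam1* on the left (rho 0.63), while *Cd44* and *Itgb1* do not go together on the right (rho -0.22), and the lone triangle at the left of the right panel is mouse 52.

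The target genes most alike to each receptor on the panel median scale differed in the same way. For *Itgb1* they were *Fgf1*, a growth factor of fibroblasts and endothelium (rho 0.74), *Tgfb2* (0.72) and *Tgfbr1*, a TGF-β receptor (0.71), while its rho with *Il1b* was -0.42. For *Cd44* they were *Col1a1*, the main chain of type I collagen (0.81), *Tnfa* (0.77) and *Tgfb1* (0.74). For *Vcam1* they were the cytokine gene *Il1b* (0.76, 39 mice), the chemokine gene *Ccl4* (0.72, 37 mice) and *Mmp19* (0.70), with *Icam1* in place 7. For *Icam1* they were *Il1b* (0.69), *Ccl4* (0.69) and *Vcam1* (0.63), followed by *Tnfa* (0.60) and *Cd44* (0.60). On this scale *Il1b* was the gene most alike to both leukocyte-recruiting receptors, but on the 18S scale it held place 36 for *Vcam1* (rho 0.70, the panel's median 0.75) and 34 for *Icam1* (0.66, median 0.70). The median rho over the panel was -0.09 for *Itgb1*, 0.45 for *Cd44*, 0.45 for *Vcam1* and 0.32 for *Icam1*. On the 18S scale the nearest genes were *Tgfbr1* for *Itgb1* (0.95), *Col1a1* for *Cd44* (0.91), *Mmp2* for *Vcam1* (0.92) and *Vcam1* for *Icam1* (0.91).

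The receptors also differed in how far they varied between mice of the same group. On the panel median scale the SD within groups was 0.63 for *Itgb1* (0.50 without mouse 52), 0.67 for *Icam1*, 0.87 for *Vcam1* and 1.28 for *Cd44*. The *Cd44* of single mice ran over a range of 4.39 on that scale, and that of *Itgb1* over 2.08 without mouse 52. On this scale *Cd44* had the largest spread between like-treated mice and *Itgb1* the smallest. With 18S the SD was 2.05 for *Itgb1*, 2.28 for *Cd44*, 1.66 for *Vcam1* and 1.34 for *Icam1*, and without mouse 52 it was 1.18 for *Itgb1* and 1.90 for *Cd44*, so that with 18S *Itgb1* had the smallest spread without that mouse only.

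The ligands and signals of these receptors on the panel did not pass the test in any of the 9 comparisons. At most 3.7% of the 54 target genes were called in any of them, so these counts do not set the lists apart. Of the 5 collagen genes that encode ligands of β1 integrins, 0 rose and 0 fell, and in P against sham at 6 weeks their median shift was -0.84, close to the -0.83 of all genes, from -1.0 (*Col3a1*) to -0.74 (*Col6a3*). The cadherins *Cdh1* and *Cdh2*, which join cells to each other, had shifts of -1.30 and -0.84 there. *Il1b* and *Tnfa*, which encode cytokines that induce *Vcam1* and *Icam1*, were at 2.26 and 1.62 in P against sham at 1 week, where *Vcam1* and *Icam1* were at -0.26 and -0.22. The exact p-values were 0.138 for *Il1b* and 0.366 for *Tnfa*. Between P+eMSC and P at 1 week *Il1b* was at -1.36 and *Tnfa* at -1.64.

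Of the 15 chemokine and chemokine receptor genes, 0 rose and 0 fell in each comparison, where at most 3.7% of target genes were called. Their median shift in P against sham at 1 week was 1.81, where that of all genes was -0.10. The shifts ran from -0.97 (*Cxcl9*) to 4.36 (*Cxcl2*, which draws neutrophils). Of the 15, 12 lay above 0, against 26 of the 54 target genes. Between P+eMSC and P at 1 week the median of the 15 was -1.09, with 13 of 15 below 0, against 28 of the 54 target genes. Neither leukocyte-recruiting receptor had a shift of such size in these comparisons, with *Vcam1* at 0.38 and *Icam1* at -0.19 between P+eMSC and P. Whether the chemokines differed more than the receptors was not tested. At 6 weeks, 1 of the 15 lay lower in P than in sham within the study's threshold, where 25.9% of the target genes lay. Between P+eMSC and P 2 of the 15 lay higher within it, against 18.5% of the target genes, the largest shift being 3.44 (*Cxcl9*, exact p = 0.0111).

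Markers of other cells moved beside the receptors only within the spread. The macrophage and monocyte genes *Ccr1*, *Ccr2*, *Mrc1*, *Arg1* and *Nos2* were all on the panel. No comparison called more than 3.7% of the 54 target genes, and 0 of these 5 were called in each. Their mean level per mouse, over those detected, ran from -18.42 to -8.84 in P (the lowest being mouse 52, and -13.70 without it), from -12.39 to -9.08 in the controls and from -14.03 to -8.77 in P+eMSC at 6 weeks. The fibroblast genes *Col1a1* and *Col3a1* ran from -11.70 (mouse 52, and -5.39 without it) to -1.72, from -4.27 to -1.70 and from -5.14 to -0.24 in the same groups. The keratinocyte cadherin *Cdh1*, a mark of skin, was detected in 40 of 41 mice. *Ccr7*, which marks homing leukocytes, had a shift of 1.83 in P against sham at 1 week (exact p = 0.445). *Ccr1*, *Ccr2* and *Ccr7* stood in the chemokine list as well, and both fibroblast genes among the collagens. The part of these cell types in the receptor values was not tested, and no list of endothelial markers was made.

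The animal numbers came as a series below 1000 and a series above 2000, whose meaning the labels do not give, and the groups held them unevenly (5 and 3 mice in P, 2 and 5 in P+eMSC, 4 and 2 in the controls at 6 weeks). The *Itgb1* shift of P from sham at 6 weeks was -2.27 in the lower series and -1.52 in the upper one, and that of P+eMSC from P was 1.64 and 1.59. Mouse 52 is one of the 5 P mice of the lower series. The lower-series shifts of *Itgb1* and *Cd44* were not computed without it, so how far their size rests on it was not tested. The shift of *Cd44* between P and sham at 6 weeks was -2.15 in the lower series and 3.43 in the upper one, and that of *Vcam1* -1.51 and 1.36. *Icam1* was split in the same way, at -1.12 and 0.90, with 4 and 3 P mice. The shifts of these 3 receptors thus had opposite signs in the 2 series, while *Itgb1* lay lower in both. The upper series holds only 3 P mice and 2 controls at 6 weeks, and whether the series differ was not tested.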

How the data were processed

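TaqMan assays for 54 mouse target genes and 18S were run on Fluidigm arrays with RNA from 41 mice. The authors extracted total RNA, preamplified the cDNA for 14 cycles and deposited the Ct values (threshold cycles, without normalization, 999 or empty where undetected). They also deposited linear fold change ratios, made with 18S as the reference and the sham controls as the calibrator, which were used here only to check each mouse's calibrator. A Ct has no read depth, so the number of mice limits the precision. Of the 54 gene names, 51 matched RefSeq symbols and 3 synonyms. Sequences came from RefSeq (GRCm38.p6).

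Values were 18S Ct minus gene Ct, and undetected values were left out. Groups were compared over all 54 genes by the two-sided exact Mann-Whitney test (at least 4 values in each group), with Benjamini-Hochberg adjustment and a call at an adjusted p below 0.05. Replicates were mice, and p-values measure the spread between them. The smallest p the exact test could give was 0.00117 with 6 and 7 mice, which for a single gene would be 0.0629 after adjustment, and 0.000666 with 8 and 6 mice. Interactions were tested with limma. Alternatives were the panel median reference, undetected values set 0.01 below the lowest, permutation of the mean (exact), limma, the animal number series as strata of the permutation or as a covariate in limma, leaving out genes whose median Ct was above 25, the study's unadjusted threshold, and leaving out each mouse. Leaving out mice 52, 78 and 2356 together was added after the data had been seen.

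The receptors and gene lists were chosen with earlier results of these data known. The lists were collagens, other adhesion molecules (2 of 4 names on the panel), cytokines that induce *Vcam1* and *Icam1*, chemokines and their receptors (15 of 17), and cell type markers. By the rule for named genes, the 4 receptors were named throughout, the genes with the largest and smallest shift of a list, and the 3 genes with the highest Spearman correlation with each receptor.

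Tested on simulated data for P+eMSC against P at 6 weeks (1080 genes, 200 changed), the exact test called 0%, 25.5% and 88% of the genes changed by a log2 of 1, 2 and 4, and the limma interaction of eMSC and week called 0%, 9.5% and 77.5%. Tests ran in R 4.3.3 (limma 3.58.1) and Python 3.11.15 (scipy 1.17.1, pandas 2.3.3, numpy 2.4.6, matplotlib 3.10.9).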

Additional observations from a re-analysis of the deposited data

Results flagged for a closer look

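Mouse 52 of the P group at 6 weeks lay so far below the other 7 mice of its group that the gap to the nearest exceeded Dixon's 95% critical value of 0.526, for *Itgb1* at -18.07 (ratio of gap to range 0.72) and for *Cd44* at -15.93 (0.64). Chance flags about 1 in 20 such groups, and 2 of 30 checks were past their limit, both in this mouse. With 31 of 54 target genes undetected and an 18S Ct of 7.79 it stood apart on the whole panel. On the panel median scale its *Cd44* of 1.02 lay within the range of the other P mice and its *Itgb1* of -1.12 lay below it. The part of RNA amount or quality in its values was not tested.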

How the results depend on the processing

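No paired analysis was possible because the animal numbers are unique and each mouse received a single treatment. Over the 36 shifts of the 4 receptors, no alternative with all mice moved a receptor past an adjusted p of 0.05. The panel median reference turned the direction of *Vcam1* (0.16) and *Icam1* (0.60) in P vs Sham at 1 week, *Vcam1* (0.046) in P+eMSC vs Sham at 1 week, *Itgb1* (-0.11) and *Vcam1* (-0.40) in P+eMSC vs P at 1 week, *Cd44* (1.04), *Vcam1* (0.91) and *Icam1* (0.73) in P vs Sham at 6 weeks, *Itgb1* (-0.27) in P+eMSC vs Sham at 6 weeks, and *Cd44* (-0.44), *Vcam1* (-0.43) and *Icam1* (-0.60) in P+eMSC vs P at 6 weeks. It also turned *Vcam1* (-0.41) and *Icam1* (-0.21) over time in sham, *Vcam1* (-0.043) over time in P+eMSC, *Cd44* (0.25) and *Icam1* (0.15) in the interaction of mesh and week, and *Vcam1* (-0.37) in that of eMSC and week. Within the animal number series, *Cd44* turned in P vs Sham at 1 week (-0.36) and over time in sham (0.63), *Itgb1* in P+eMSC vs Sham at 6 weeks (-0.10) and *Icam1* over time in P (0.019). By limma and by exact permutation of the mean, *Itgb1* turned to -0.073 in P+eMSC vs Sham at 6 weeks. With undetected values set low, *Vcam1* turned to -0.16 over time in P and to -0.38 in the interaction of mesh and week. Without mice 52, 78 and 2356, *Vcam1* turned to 0.47 in P+eMSC vs Sham at 1 week, -0.0167 over time in P, -0.0013 over time in P+eMSC and -0.19 in the interaction of mesh and week. Of the 54 genes, 2 were called in P vs Sham at 6 weeks, and 0 with the panel median, by limma, or without those mice. At the study's threshold 3 genes passed in P vs Sham at 1 week, 14 in P vs Sham and 10 in P+eMSC vs P at 6 weeks, and 2 over time in sham (*Tgfb2* and *Tgfb3*). The difference of matrix and leukocyte-recruiting receptors moved to 3.80 and 5.24 in P at 1 week, 4.69 and 3.79 in P+eMSC at 1 week, and 3.68 in P at 6 weeks when only *Itgb1* minus *Icam1* or only *Cd44* minus *Vcam1* was taken. The cause of these changes was not tested. Leaving out each mouse in turn turned the direction in 86 cases, all of them shifts from -0.42 to 0.86, and changed neither direction nor call in 963. The ranges were, in P vs Sham at 1 week *Vcam1* from -0.65 to 0.16 and *Icam1* from -0.47 to 0.30, in P+eMSC vs Sham at 1 week *Vcam1* from -0.79 to 0.47, in P+eMSC vs P at 1 week *Vcam1* from -0.10 to 1.01 and *Icam1* from -0.40 to 0.038, in P vs Sham at 6 weeks *Itgb1* from -1.82 to -1.43, *Cd44* from -0.61 to 0.10, *Vcam1* from -0.79 to 0.56 and *Icam1* from -0.77 to 0.40, in P+eMSC vs Sham at 6 weeks *Itgb1* from -0.11 to 0.14 and *Vcam1* from -0.38 to 1.10, in the time comparison in sham *Cd44* from -0.76 to 0.52, *Vcam1* from -0.57 to 0.67 and *Icam1* from -0.35 to 0.68, in the time comparison in P *Itgb1* from -0.50 to 0.13, *Vcam1* from -0.25 to 0.45 and *Icam1* from -0.53 to 0.61, in the time comparison in P+eMSC *Vcam1* from -0.0013 to 1.20 and in the interaction of mesh and week *Vcam1* from -0.52 to 0.54 and *Icam1* from -0.65 to 0.010. Only *Itgb1* in P vs Sham at 6 weeks changed its call, with mouse 437 or the sham mouse 123 left out. The count of genes called in that comparison ran from 0 to 10, with 10 without mouse 437, 8 without the sham mouse 123 and 0 when any other mouse of either group was left out.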
